A study of Mus musculus with 8 samples.

Results

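The ears of mice numbered 1 and 2 were set against the ears of mice numbered 3 and 4, over both treatments of a study of allergic contact dermatitis in mice. The first side holds 4 of the 8 libraries and the second side the other 4. The labels give no reason for such a division. The sides were chosen by the measured values of these libraries over all genes. In these, the ears of mice 1 and 2 departed from their treatment mean in a like direction in both treatments. The mean of mice 3 and 4 then departs the other way by arithmetic. Everything below that compares the sides is therefore a description with no test, whatever its size.

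On the first side stood the ears of 2 mice given MMP-9-IN-1 (inhibitor mice 1 and 2) and of 2 mice given solvent (vehicle mice 1 and 2). On the second side stood inhibitor mice 3 and 4 and vehicle mice 3 and 4. MMP-9-IN-1 is a small molecule sold as an inhibitor of matrix metalloproteinase 9, a protease that neutrophils store in granules. All mice were C57BL/6 animals of 6 to 8 weeks, and all received dinitrofluorobenzene (DNFB), a hapten that binds skin proteins and sensitises T cells. DNFB was put on the skin on day 1 (25 µL at 0.3%) and on the left ear on day 6 (10 µL at 0.25%). The inhibitor was injected into the peritoneum at 10 mg/kg, and the vehicle was the same volume of 10% DMSO, 40% PEG300 and 50% PBS. After 4 days of treatment, tissue of the left ear was taken for poly(A) RNA sequencing, so skin, cartilage, muscle, fat and infiltrating cells share 1 library. No ear without DNFB was analysed here. Day of collection and batch were not analysed here. Mice of 1 treatment are separate animals by their labels.

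Contact hypersensitivity starts when dendritic cells carry hapten-marked protein to lymph nodes and prime T cells. On challenge, keratinocytes and mast cells release chemokines, neutrophils enter within hours, and primed CD8+ and CD4+ T cells and NK cells follow. Injured epidermis switches from its barrier programme (keratin 1, filaggrin, loricrin) to an activated one with stress keratins, cytokines and matrix proteases. In a whole ear, a lower transcript level can mean fewer cells of a type or less RNA per cell, and these cannot be told apart.

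The libraries held 13863207 to 18512231 estimated reads over 19126 genes, with 16994 to 17601 genes detected in each. The 10 most abundant genes took 5.07% to 7.03% of the reads. Inhibitor mouse 1 had the smallest library and the fewest genes detected. In a principal component analysis of log2 CPM (reads of a gene scaled to the size of its library), the first component took 64.0% of the variance. Its scores were -19.99 and -33.5 in inhibitor mice 1 and 2 and -86.4 and -93.2 in vehicle mice 1 and 2, against 54.9 and 63.4 in inhibitor mice 3 and 4 and 53.5 and 61.4 in vehicle mice 3 and 4. The second component took 18.6%, and on it inhibitor mouse 1 stood at 81.7 while the other ears lay between -31.5 and 12.2. The ears of mice 1 and 2 also differed more from one another. The median SD of a gene's log2 CPM was 0.31 over the ears of mice 1 and 2 and 0.18 over those of mice 3 and 4. Inhibitor mouse 1 was the lowest of all 8 ears in 2698 genes (17.2%) and the highest in 3045 genes (19.4%). Some other ears were as extreme. Vehicle mouse 2 was the lowest in 3106 genes (19.8%) and the highest in 3175 (20.3%). Vehicle mouse 1 was the lowest in 2741 (17.5%), and inhibitor mouse 4 the highest in 3280 (20.9%). The counts of lists that change without inhibitor mouse 1 are given below with and without it.

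**Figure D1:**
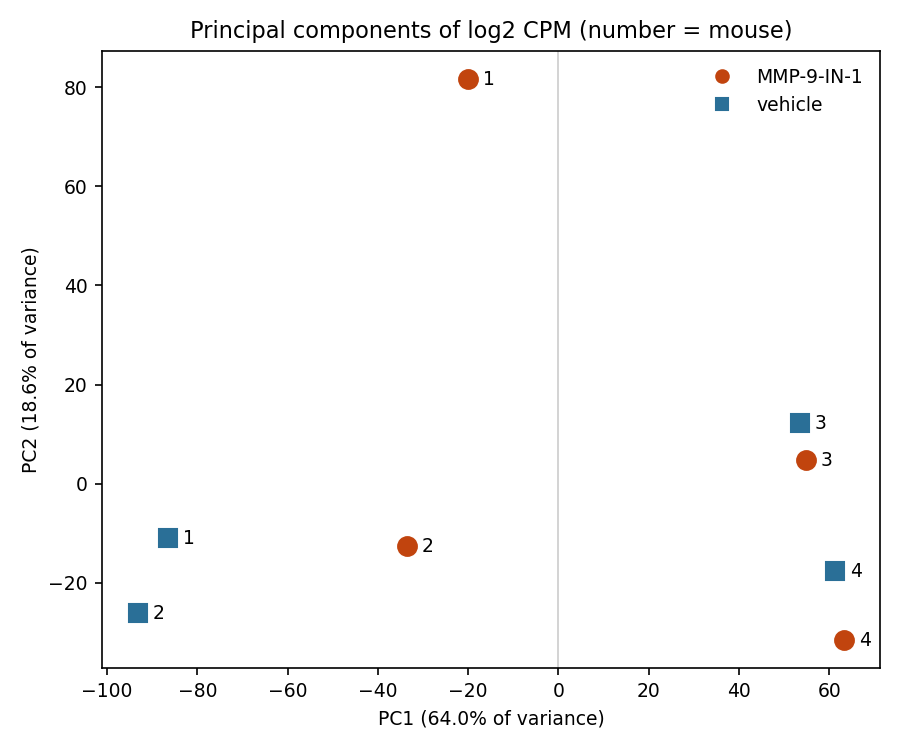
Scores of the 8 ears on the first (x axis, 64.0% of variance) and second (y axis, 18.6%) principal components of log2 CPM over 15660 genes. The ears of mice 1 and 2 have negative first scores and those of mice 3 and 4 positive ones; inhibitor mouse 1 stands alone at 81.7 on the second component.

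Of 15660 genes with enough reads, 742 stood higher and 1554 stood lower in the ears of mice 1 and 2. A gene was counted when all 4 ears of one side lay above all 4 of the other and the log2 difference was at least 1. The difference came from an edgeR fit to the counts with treatment as covariate. Values after a gene in parentheses are this log2 difference, ears of mice 1 and 2 minus those of mice 3 and 4, with the SE of the fit where an error is given. The same values drew the sides, so this SE describes the fit and is no measure of certainty. These counts are 4.74% and 9.92% of the genes, and since the values had drawn the division, nothing is read from them. They are the shares over all genes to set beside the count of each list below. Separation with no minimum difference held for 2850 genes higher (18.2%) and 3048 lower (19.5%). The median log2 difference over all genes was -0.02. Nt5e (log2 difference 1.00) stood just inside the minimum, and Homer3 (0.999) just outside it. Without inhibitor mouse 1, 1425 genes were higher (8.92% of 15970) and 1728 lower (10.8%). Of the 742 higher genes 702 were among these, with 723 more, and of the 1554 lower genes 1450 were among these, with 278 more. The shares of 8.92% and 10.8% are those to set beside list counts without inhibitor mouse 1. That ear was left out after its values were seen, and fewer ears separate more easily. A rise in a count without it is therefore no evidence about a list. List counts were not redone without any other ear.

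The 8 genes named as markers of the sides all separated them except Mmp13. Csf3, the granulocyte colony-stimulating factor that drives neutrophil production, had 5.84 and 161 CPM in inhibitor mice 1 and 2 and 447 and 347 CPM in vehicle mice 1 and 2, against 1.28 and 2.56 CPM in inhibitor mice 3 and 4 and 0.822 and 2.24 CPM in vehicle mice 3 and 4. Every ear of mice 1 and 2 was above every ear of mice 3 and 4, with inhibitor mouse 1 nearest to them (log2 6.72 ± 1.18). Ngp, a neutrophil granule protein, had 11.1 and 39.6 CPM in inhibitor mice 1 and 2 and 181 and 89.0 CPM in vehicle mice 1 and 2, against 0.154 and 0.768 CPM in inhibitor mice 3 and 4 and 0.308 and 0.407 CPM in vehicle mice 3 and 4. It separated the sides as well (log2 7.27 ± 0.80), and all ears of mice 3 and 4 were under 1 CPM. Il6, the interleukin 6 cytokine, had 22.3 and 94.0 CPM in inhibitor mice 1 and 2 and 170.4 and 262 CPM in vehicle mice 1 and 2, against 3.38 and 8.61 CPM in inhibitor mice 3 and 4 and 1.85 and 2.70 CPM in vehicle mice 3 and 4 (log2 4.85 ± 0.89). Mmp13, a collagenase, had 3.64 and 126 CPM in inhibitor mice 1 and 2 and 346 and 976 CPM in vehicle mice 1 and 2, against 5.43 and 11.6 CPM in inhibitor mice 3 and 4 and 3.95 and 8.35 CPM in vehicle mice 3 and 4. Here inhibitor mouse 1 was the lowest of all 8 ears, while the other 3 ears of its side were at 126 CPM or more.

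On the other side of the marker list, Krt1, the keratin of the upper epidermis, had 133 and 399.7 CPM in inhibitor mice 1 and 2 and 89.9 and 108 CPM in vehicle mice 1 and 2, against 906 and 745 CPM in inhibitor mice 3 and 4 and 1306 and 1268 CPM in vehicle mice 3 and 4. All ears of mice 1 and 2 were below all ears of mice 3 and 4 (log2 -2.66 ± 0.53), and the vehicle pair was the lowest. Flg, which codes for the barrier protein filaggrin, had 3.30 and 70.9 CPM in inhibitor mice 1 and 2 and 11.3 and 21.4 CPM in vehicle mice 1 and 2, against 176 and 268 CPM in inhibitor mice 3 and 4 and 199 and 389 CPM in vehicle mice 3 and 4 (log2 -3.37 ± 0.87). Cd3e, a chain of the T-cell receptor complex, had 1.10 and 1.37 CPM in inhibitor mice 1 and 2 and 0.0670 and 0.754 CPM in vehicle mice 1 and 2, against 4.81 and 7.58 CPM in inhibitor mice 3 and 4 and 5.08 and 10.7 CPM in vehicle mice 3 and 4 (log2 -3.16 ± 0.61). H2-Aa, a chain of MHC class II, had 98.4 and 346 CPM in inhibitor mice 1 and 2 and 91.5 and 152 CPM in vehicle mice 1 and 2, against 708 and 1266 CPM in inhibitor mice 3 and 4 and 693 and 1159.9 CPM in vehicle mice 3 and 4 (log2 -2.54 ± 0.46). In all 4 of these genes inhibitor mouse 2 was the nearest ear to mice 3 and 4.

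**Figure D2:**
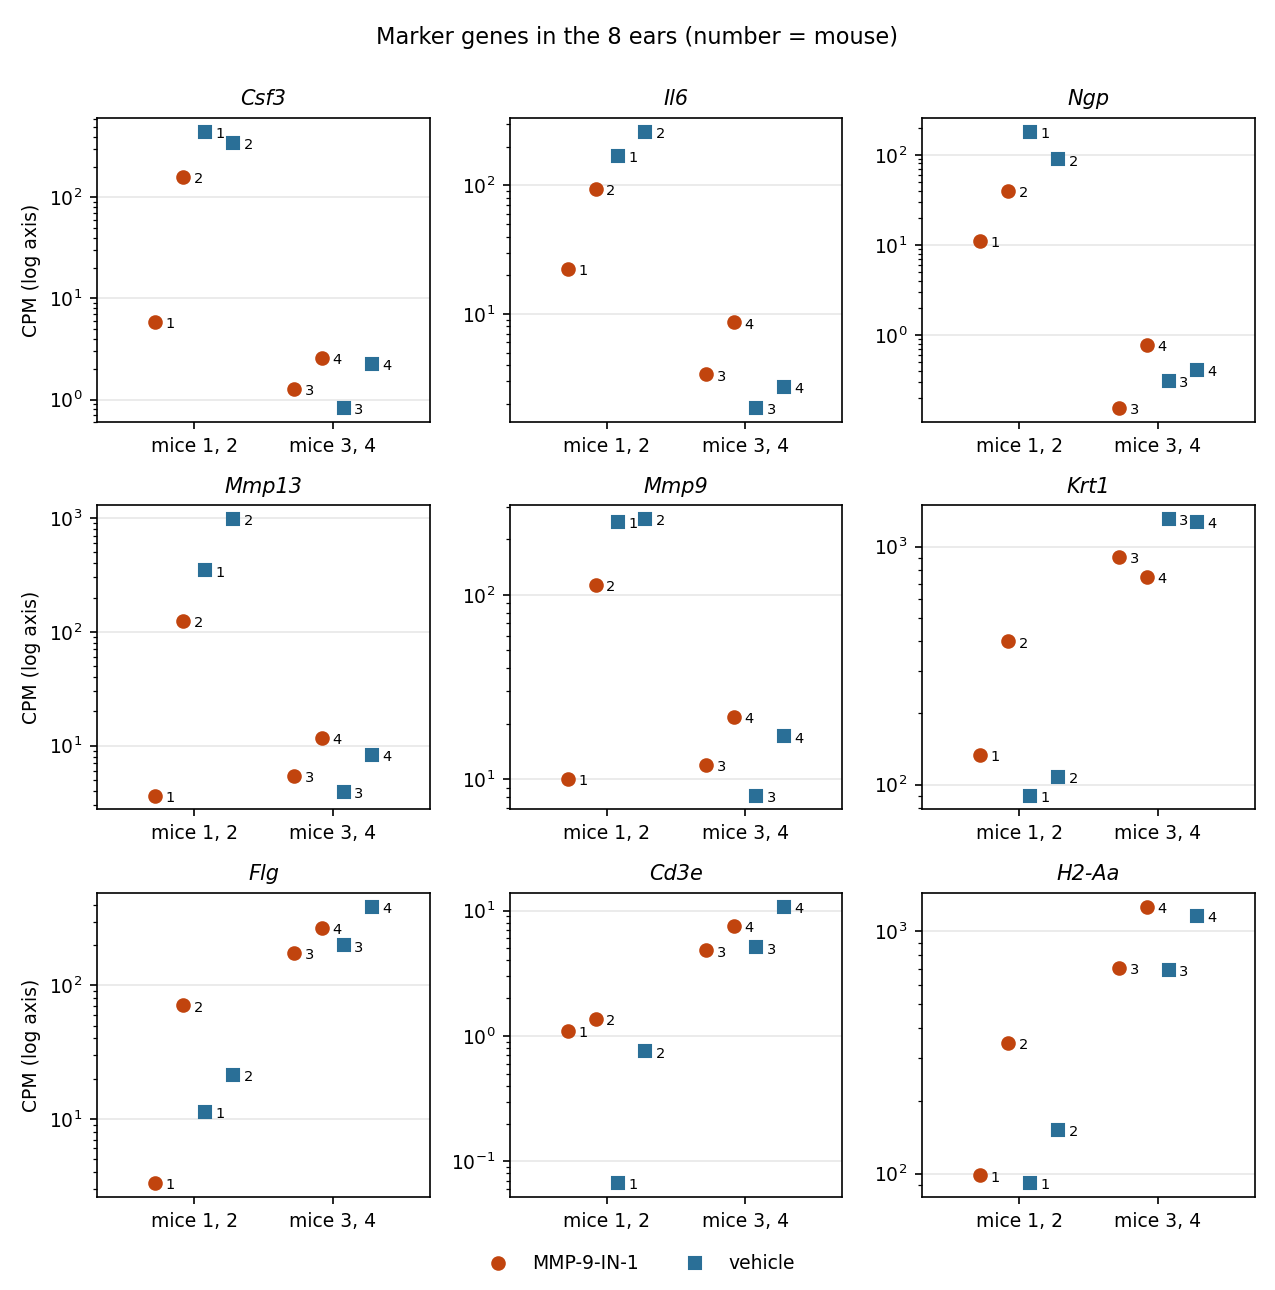
Level of each marker gene and Mmp9 in every ear, in CPM on a log axis, with the ears of mice 1 and 2 left of those of mice 3 and 4 and the treatment shown by colour and shape (circles inhibitor, squares vehicle). Csf3, Il6 and Ngp are higher and Krt1, Flg, Cd3e and H2-Aa lower in all 4 ears of mice 1 and 2; Mmp13 and Mmp9 overlap through inhibitor mouse 1.

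Neutrophil genes did not separate the sides as a group, so the first side is called here by its mouse numbers and not by a neutrophil state. Of 29 neutrophil markers with enough reads, 7 were higher and 1 lower, with a median log2 difference of 2.70. Their mean log2 CPM was 4.01 and 6.53 in inhibitor mice 1 and 2 and 7.11 and 7.28 in vehicle mice 1 and 2, against 3.72 and 4.54 in inhibitor mice 3 and 4 and 3.64 and 4.24 in vehicle mice 3 and 4. Inhibitor mouse 1 lay inside the range of mice 3 and 4, and the other 3 ears of its side were above that range. Without it, 26 of the 29 were higher, beside 8.92% of all genes without that ear. Its overlap is the reason it was left out, so the rise is a description and no evidence.

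The 7 higher neutrophil genes were Ngp, Retnlg, Mpo, Ly6g, Cd177, Lcn2 and Mmp8. Ly6g, the surface marker used to gate mouse neutrophils, had 4.81 and 18.01 CPM in inhibitor mice 1 and 2 and 57.0 and 52.0 CPM in vehicle mice 1 and 2, against 1.08 and 1.23 CPM in inhibitor mice 3 and 4 and 0.770 and 1.68 CPM in vehicle mice 3 and 4 (4.43). Retnlg, a resistin-like gene of mouse neutrophils, had 50.9 and 700.3 CPM in inhibitor mice 1 and 2 and 1879 and 1272 CPM in vehicle mice 1 and 2, against 6.40 and 15.7 CPM in inhibitor mice 3 and 4 and 5.86 and 12.5 CPM in vehicle mice 3 and 4 (log2 6.25 ± 1.03). In both, inhibitor mouse 1 was above the ears of mice 3 and 4 and far below the other 3 ears of its side. S100a9, a calgranulin that is among the most abundant neutrophil transcripts, had 401 and 4153 CPM in inhibitor mice 1 and 2 and 5482 and 8117 CPM in vehicle mice 1 and 2, against 281 and 480.4 CPM in inhibitor mice 3 and 4 and 404 and 439 CPM in vehicle mice 3 and 4. S100a9 thus overlapped, since inhibitor mouse 1 was in the range of mice 3 and 4. Mmp9, the named target of the inhibitor, had 10.1 and 113 CPM in inhibitor mice 1 and 2 and 249 and 257 CPM in vehicle mice 1 and 2, against 12.0 and 21.8 CPM in inhibitor mice 3 and 4 and 8.17 and 17.1 CPM in vehicle mice 3 and 4. Its log2 difference was 3.10, and it too overlapped through inhibitor mouse 1. Cybb, an NADPH oxidase subunit shared with macrophages, was the lower one at 21.0 to 44.5 CPM in mice 1 and 2 against 114 to 209 CPM in mice 3 and 4.

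All members of the neutrophil-attracting chemokines stood at higher mean levels in mice 1 and 2, and 3 of 6 did so with no overlap, against 5 higher and 0 lower of 6 without inhibitor mouse 1. Cxcl1, a ligand of the neutrophil receptor CXCR2, had 129 and 372 CPM in inhibitor mice 1 and 2 and 784 and 971 CPM in vehicle mice 1 and 2, against 7.99 and 16.4 CPM in inhibitor mice 3 and 4 and 6.21 and 7.03 CPM in vehicle mice 3 and 4 (log2 5.69 ± 0.74). Ppbp, another ligand of that receptor and also a platelet product, had 4.33 and 31.7 CPM in inhibitor mice 1 and 2 and 19.4 and 28.7 CPM in vehicle mice 1 and 2, against 1.28 and 1.38 CPM in inhibitor mice 3 and 4 and 0.462 and 1.12 CPM in vehicle mice 3 and 4 (log2 4.30 ± 0.67). Cxcl2 ran between 41.8 and 8413 CPM in the ears of mice 1 and 2, against 58.8 to 195 CPM in those of mice 3 and 4, with inhibitor mouse 1 the lowest of all ears. Of 8 chemokines that draw monocytes, 0 were separated (median 1.12). Without inhibitor mouse 1, 4 of them were. Ccl3, which draws monocytes and macrophages, ran between 6.05 and 1769 CPM in the ears of mice 1 and 2, against 17.1 to 56.9 CPM in those of mice 3 and 4.

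Among cytokines, 7 of 25 were higher and 3 lower (median 2.13), against 17 higher and 3 lower of 26 without inhibitor mouse 1. The higher ones were Csf3, Il6, Lif, Tslp, Il24, Il11 and Il19. Tslp, an epithelial cytokine that acts on dendritic cells and mast cells, ran between 5.71 and 105 CPM in the ears of mice 1 and 2, against 3.12 to 4.45 CPM in those of mice 3 and 4. Lif, a relative of interleukin 6, ran 7.15 to 41.0 CPM in mice 1 and 2 against 1.59 to 2.66 CPM in mice 3 and 4, and Il11, of the same family, 13.4 to 31.1 CPM in mice 1 and 2 against 2.93 to 4.25 CPM in mice 3 and 4. Il1b, made by myeloid cells, had 69.3 and 1685 CPM in inhibitor mice 1 and 2 and 1449.9 and 3861 CPM in vehicle mice 1 and 2, against 147 and 328 CPM in inhibitor mice 3 and 4 and 113 and 388 CPM in vehicle mice 3 and 4. It was not separated, because inhibitor mouse 1 was below all ears of mice 3 and 4. The lower cytokines were Il12b, Ifng and Il1f5 (interleukin 36 receptor antagonist). Ifng, the interferon of T and NK cells, had 0.536 to 0.960 CPM in mice 1 and 2 against 2.26 to 3.84 CPM in mice 3 and 4. Il17a, Il17f and Il4, cytokines of helper T cells, had too few reads to be compared.

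Metalloproteinases and their inhibitors were measured together. Of 18 members, 3 were higher and 3 lower, with a median log2 difference of 0.02. The counts were 7 higher and 3 lower of 18 without inhibitor mouse 1. Mmp3, stromelysin 1, had 1732 and 3646 CPM in inhibitor mice 1 and 2 and 5948 and 10842 CPM in vehicle mice 1 and 2, against 83.2 and 104 CPM in inhibitor mice 3 and 4 and 99.2 and 71.3 CPM in vehicle mice 3 and 4 (log2 5.73 ± 0.53). Per transcript length, Mmp3 reached 4585 and 7390 TPM in vehicle mice 1 and 2 and 70.0 to 101 TPM in the ears of mice 3 and 4. Mmp10, stromelysin 2, had 2.41 and 38.9 CPM in inhibitor mice 1 and 2 and 155 and 367 CPM in vehicle mice 1 and 2, against 0.410 and 0.973 CPM in inhibitor mice 3 and 4 and 0.462 and 0.509 CPM in vehicle mice 3 and 4 (log2 7.13 ± 1.28). Both stromelysins were above every ear of mice 3 and 4 in all 4 ears of mice 1 and 2, though Mmp10 had only 2.41 CPM in inhibitor mouse 1. Mmp8, the neutrophil collagenase, was the other higher one at 16.2 to 118 CPM in mice 1 and 2 against 4.31 to 14.2 CPM in mice 3 and 4. Mmp12, the macrophage elastase, had 10.2 and 312 CPM in inhibitor mice 1 and 2 and 209 and 785 CPM in vehicle mice 1 and 2, against 12.1 and 23.7 CPM in inhibitor mice 3 and 4 and 5.60 and 11.9 CPM in vehicle mice 3 and 4. Its overlap came from inhibitor mouse 1. The lower ones were Timp4 (-3.41) and Timp3 (-1.63), tissue inhibitors of these proteases, and Mmp23 (-1.88). Timp1, the inducible inhibitor, ran between 159 and 399 CPM in the ears of mice 1 and 2, against 104 to 251 CPM in those of mice 3 and 4.

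The promoters of Cxcl1, Il6 and Mmp3 are shown because these genes stood among the widest separations and belong to a chemokine, a cytokine and a protease. The sequences are RefSeq's for GRCm38.p6, an earlier build than the GRCm39 of the deposited table, and run from 250 bases before to 50 after the transcript start on the + strand. They lie at chr5:90890995-90891294 for Cxcl1, chr5:30012864-30013163 for Il6 and chr9:7445572-7445871 for Mmp3. Capitals mark letters that match TGANTCA (the AP-1 motif, read by Fos and Jun proteins) or GGGANNTTCC (the NF-kB motif), searched on both strands. Cxcl1 holds an NF-kB match, in 2 overlapping readings, Il6 an AP-1 and an NF-kB match, and Mmp3 an AP-1 match.
Cxcl1: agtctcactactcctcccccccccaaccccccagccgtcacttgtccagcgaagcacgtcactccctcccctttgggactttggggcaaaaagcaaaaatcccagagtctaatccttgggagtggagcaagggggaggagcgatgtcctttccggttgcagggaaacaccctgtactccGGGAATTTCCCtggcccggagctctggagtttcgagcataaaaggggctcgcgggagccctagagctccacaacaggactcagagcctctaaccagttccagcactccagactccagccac
Il6: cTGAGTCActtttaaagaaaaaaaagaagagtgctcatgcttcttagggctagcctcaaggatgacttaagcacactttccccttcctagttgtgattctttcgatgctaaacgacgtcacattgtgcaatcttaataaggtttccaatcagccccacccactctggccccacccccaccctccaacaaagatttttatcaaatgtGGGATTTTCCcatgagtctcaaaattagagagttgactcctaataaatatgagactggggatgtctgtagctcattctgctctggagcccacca
Mmp3: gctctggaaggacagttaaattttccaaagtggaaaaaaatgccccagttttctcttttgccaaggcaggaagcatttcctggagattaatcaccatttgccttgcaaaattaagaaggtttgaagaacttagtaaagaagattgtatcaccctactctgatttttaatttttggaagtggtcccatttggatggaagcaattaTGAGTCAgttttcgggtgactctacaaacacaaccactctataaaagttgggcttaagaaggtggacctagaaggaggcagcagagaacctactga

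Such matches occurred in promoters of genes of both directions. The AP-1 letters were in 8.16% of the 748 promoters of higher genes and in 8.22% of the 1485 promoters of lower genes, beside 5.99% of 15739 promoters of the genes compared. For NF-kB the shares were 1.87% in higher genes, 2.09% in lower genes and 1.50% in all. The letters TATAAA were in 16.3% of promoters of higher genes, 11.1% of those of lower genes and 8.34% of all. A match is a string of letters in this window and not a site shown to be bound.

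Among genes of wound repair and of activated epidermis, the higher ones outnumbered the lower ones. Of 19 wound and plasminogen genes, 8 were higher and none was lower (median 2.36), against 16 higher and 0 lower of 19 without inhibitor mouse 1. Fosl1, a Fos-family subunit of AP-1, had 52.7 and 91.8 CPM in inhibitor mice 1 and 2 and 318 and 297 CPM in vehicle mice 1 and 2, against 3.17 and 2.87 CPM in inhibitor mice 3 and 4 and 1.34 and 1.38 CPM in vehicle mice 3 and 4 (log2 6.12 ± 0.72). Ptgs2, the inducible cyclooxygenase, had 60.7 and 932 CPM in inhibitor mice 1 and 2 and 2377 and 4699 CPM in vehicle mice 1 and 2, against 18.7 and 29.0 CPM in inhibitor mice 3 and 4 and 10.9 and 28.8 CPM in vehicle mice 3 and 4 (log2 5.92 ± 1.16). The epidermal growth factor receptor ligands Ereg (3.59), Areg (2.72) and Hbegf (2.47) were also higher. Plaur, the urokinase receptor, ran between 51.8 and 1199 CPM in the ears of mice 1 and 2, against 32.0 to 72.5 CPM in those of mice 3 and 4, and was not separated.

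Of 30 activated keratinocyte genes, 12 were higher and 1 lower (median 1.72), against 19 higher and 1 lower of 30 without inhibitor mouse 1. Slpi, an antiprotease of inflamed epithelium, had 58.7 and 632 CPM in inhibitor mice 1 and 2 and 1279 and 1369.8 CPM in vehicle mice 1 and 2, against 28.4 and 44.7 CPM in inhibitor mice 3 and 4 and 21.0 and 40.5 CPM in vehicle mice 3 and 4 (log2 4.33 ± 0.85). Sprr2f, a small proline-rich envelope protein, ran between 6.32 and 137 CPM in the ears of mice 1 and 2, against 1.23 to 3.44 CPM in those of mice 3 and 4. Members of the Sprr2 and Lce3 families are close copies, so reads may be split among them. Defb3, a skin antimicrobial peptide, ran 1.03 to 11.7 CPM in mice 1 and 2 against 0.461 to 0.873 CPM in mice 3 and 4, and S100a7a 1.37 to 13.5 CPM in mice 1 and 2 against 0.360 to 0.819 CPM in mice 3 and 4. The stress keratins did not follow them. Krt6a had a log2 difference of 1.07 and Krt16 of 0.29, both with overlap. Krt16 ran between 954 and 1887 CPM in the ears of mice 1 and 2, against 738 to 1388 CPM in those of mice 3 and 4.

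Upper-layer keratins and filaggrin-family genes were among the lower barrier genes. Of 40 epidermal barrier genes, 16 were lower and none was higher (median -0.59), against 2 higher and 16 lower of 40 without inhibitor mouse 1. The lower ones were the upper-layer keratins Krt1, Krt2, Krt10 and Krt77, the filaggrin family (Flg, Flg2, Hrnr, Rptn), loricrin (Lor), 4 Lce1 genes, Casp14, Dsg1a and Skint3. Flg2 had 0.550 and 4.04 CPM in inhibitor mice 1 and 2 and 0.402 and 0.411 CPM in vehicle mice 1 and 2, against 23.6 and 18.2 CPM in inhibitor mice 3 and 4 and 29.6 and 24.0 CPM in vehicle mice 3 and 4 (log2 -4.30 ± 0.72). It was the widest barrier difference, and the vehicle pair of mice 1 and 2 held under 1 CPM. Krt77, an upper-layer keratin, ran between 0.137 and 1.80 CPM in the ears of mice 1 and 2, against 6.15 to 11.8 CPM in those of mice 3 and 4. Lor ran between 8.94 and 20.4 CPM in the ears of mice 1 and 2, against 46.7 to 80.3 CPM in those of mice 3 and 4. The other 24 genes did not meet the count's 2 conditions. Pnpla1, an enzyme of barrier lipid, had no overlap but missed the minimum difference (-0.71). Alox12b had a log2 difference of 1.00, Abca12 of 0.52, Cers3 of -0.17 and Klk7 of 0.11. Ivl, which codes for involucrin, had 28.0 ± 4.15 CPM in the ears of mice 1 and 2 and 25.3 ± 1.56 CPM in those of mice 3 and 4 (SD, n = 4 each).

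**Figure D3:**
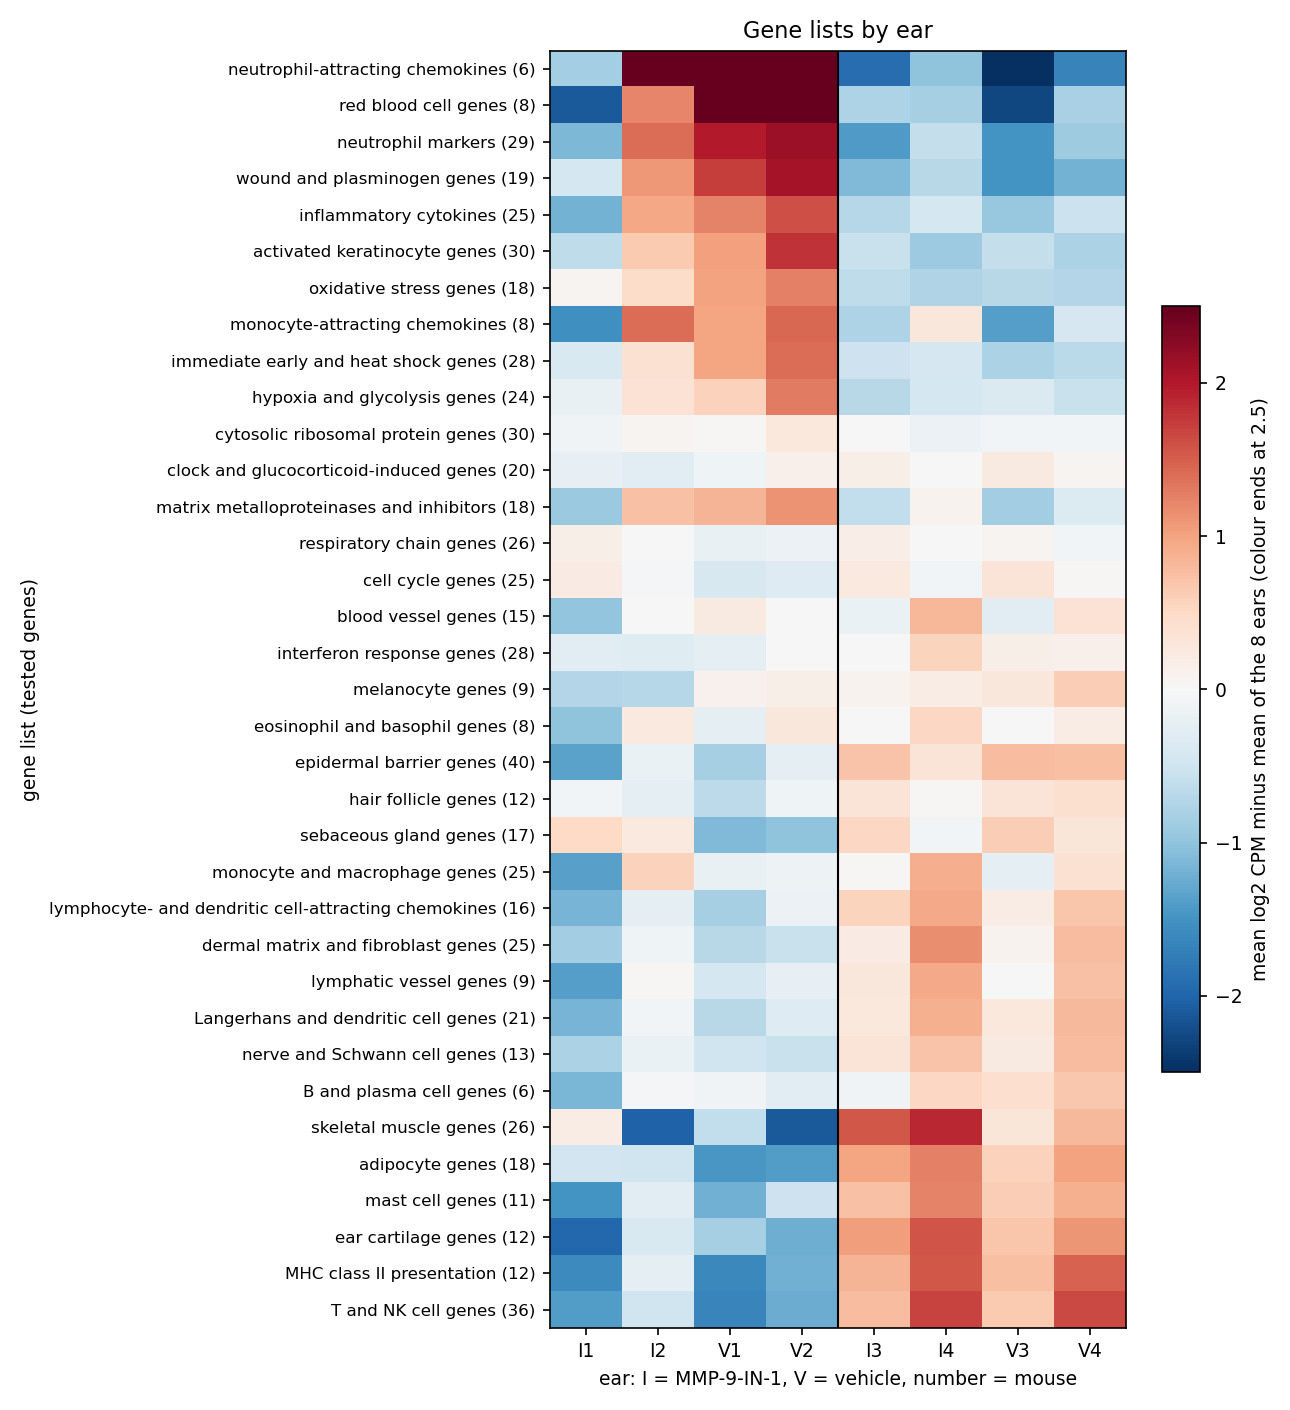
Mean log2 CPM of each gene list in every ear, shown by colour as the distance from the list's mean over the 8 ears (red above, blue below); the columns on the left are the ears of mice 1 and 2 and those on the right the ears of mice 3 and 4. T and NK cell, MHC class II, mast cell and cartilage lists are lower in all 4 ears on the left, neutrophil-attracting chemokines are higher in all 4, and the neutrophil and red blood cell lists are high in 3 of those ears, with inhibitor mouse 1 apart.

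Lymphocyte genes were lower in mice 1 and 2. Of 36 T and NK cell genes, 30 were lower and none was higher (median -2.66), against 0 higher and 29 lower of 36 without inhibitor mouse 1. Their mean log2 CPM was 1.07 and 1.98 in inhibitor mice 1 and 2 and 0.82 and 1.22 in vehicle mice 1 and 2, against 3.24 and 4.16 in inhibitor mice 3 and 4 and 3.12 and 4.12 in vehicle mice 3 and 4. No ear of mice 1 and 2 reached the lowest ear of mice 3 and 4. Gzma, a granzyme of cytotoxic cells, had 0.619 and 0.869 CPM in inhibitor mice 1 and 2 and 0.134 and 0.617 CPM in vehicle mice 1 and 2, against 7.42 and 26.5 CPM in inhibitor mice 3 and 4 and 5.55 and 27.4 CPM in vehicle mice 3 and 4 (log2 -4.91 ± 0.75). Klrb1c, which codes for the NK cell receptor NK1.1, had 0.137 and 0.248 CPM in inhibitor mice 1 and 2 and 0.134 and 0.206 CPM in vehicle mice 1 and 2, against 2.36 and 8.66 CPM in inhibitor mice 3 and 4 and 2.16 and 4.84 CPM in vehicle mice 3 and 4 (log2 -4.56 ± 0.60). The CD8 chain Cd8a (1.41 to 3.42 CPM in mice 1 and 2 against 10.96 to 27.2 CPM in mice 3 and 4), the CD4 co-receptor Cd4 (1.44 to 5.71 CPM in mice 1 and 2 against 10.1 to 28.4 CPM in mice 3 and 4) and Foxp3 of regulatory T cells (0.891 to 5.15 CPM in mice 1 and 2 against 6.63 to 12.5 CPM in mice 3 and 4) were lower as well. Il7r and Tcf7, genes of resting and memory T cells and of innate lymphoid cells, were not separated (0.16 and -0.01). B-cell genes were scarce. Of 6 with enough reads, 3 were lower, among them Jchain, the joining chain of secreted antibody, at 0.0621 to 0.275 CPM in mice 1 and 2 against 0.717 to 2.55 CPM in mice 3 and 4. The counts of B-cell genes were 1 higher and 2 lower of 7 without inhibitor mouse 1.

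Every MHC class II gene tested was lower in mice 1 and 2, namely 12 of 12 (median -2.40). Ciita, the transactivator of these genes, had 5.64 and 12.3 CPM in inhibitor mice 1 and 2 and 3.89 and 4.11 CPM in vehicle mice 1 and 2, against 41.5 and 56.8 CPM in inhibitor mice 3 and 4 and 35.5 and 54.4 CPM in vehicle mice 3 and 4 (log2 -2.95 ± 0.34). H2-DMb1, part of the molecule that loads peptide onto class II, ran between 8.91 and 38.6 CPM in the ears of mice 1 and 2, against 98.2 to 167 CPM in those of mice 3 and 4. Of 21 Langerhans and dendritic cell genes 11 were lower and none was higher (-1.17), against 1 higher and 10 lower of 21 without inhibitor mouse 1. Cd209a, a lectin of dermal dendritic cells, had 0.344 and 2.17 CPM in inhibitor mice 1 and 2 and 0.402 and 0.686 CPM in vehicle mice 1 and 2, against 5.02 and 10.4 CPM in inhibitor mice 3 and 4 and 5.08 and 9.68 CPM in vehicle mice 3 and 4 (log2 -3.11 ± 0.58). Clec10a, another dendritic cell lectin, ran between 3.08 and 15.1 CPM in the ears of mice 1 and 2, against 29.2 to 52.7 CPM in those of mice 3 and 4. Of 16 chemokines listed as drawing lymphocytes or dendritic cells, 6 were lower and 1 was higher. Without inhibitor mouse 1 the counts were 1 higher and 5 lower of 16. Among the 6 were Xcl1, Ccl5, Ccl21a, Ccl22 and Ccl19. Ccl21a has near-identical copies, so its level of 6.53 to 56.8 CPM in mice 1 and 2 against 95.1 to 246 CPM in mice 3 and 4 is uncertain. Ccl20, which epithelium makes for CCR6-bearing cells, was the 1 higher member at 2.61 to 20.2 CPM in mice 1 and 2 against 1.18 to 1.69 CPM in mice 3 and 4.

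Monocyte and macrophage genes were divided within the list. Of 25, 7 were lower and 2 higher, against 4 higher and 7 lower of 25 without inhibitor mouse 1. The lower ones were Marco, Ccr2, the complement genes C1qa, C1qb and C1qc, Adgre1 (the F4/80 antigen) and Lyz2. Adgre1 ran between 5.50 and 26.3 CPM in the ears of mice 1 and 2, against 37.9 to 103 CPM in those of mice 3 and 4. The higher ones were Spp1, which codes for osteopontin, and Nos2, the inducible nitric oxide synthase. Spp1 had 372 and 5697 CPM in inhibitor mice 1 and 2 and 7598 and 7953 CPM in vehicle mice 1 and 2, against 147 and 239 CPM in inhibitor mice 3 and 4 and 152 and 255 CPM in vehicle mice 3 and 4 (log2 4.62 ± 0.82). Nos2 had 32.4 and 157 CPM in inhibitor mice 1 and 2 and 226 and 341 CPM in vehicle mice 1 and 2, against 4.15 and 9.22 CPM in inhibitor mice 3 and 4 and 6.01 and 6.42 CPM in vehicle mice 3 and 4 (log2 4.67 ± 0.65). Both are also made by cells other than macrophages.

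Mast cell genes were lower in 8 of 11 (median -2.10), against 1 higher and 8 lower of 11 without inhibitor mouse 1. Tpsb2, a tryptase of connective tissue mast cells, had 3.09 and 8.51 CPM in inhibitor mice 1 and 2 and 3.75 and 4.11 CPM in vehicle mice 1 and 2, against 35.6 and 49.8 CPM in inhibitor mice 3 and 4 and 31.6 and 38.5 CPM in vehicle mice 3 and 4 (log2 -3.01 ± 0.30). Mrgprb2, their receptor for basic peptides, ran between 0 and 0.497 CPM in the ears of mice 1 and 2, against 1.79 to 2.98 CPM in those of mice 3 and 4. Eosinophil and basophil genes showed 1 lower of 8, which was Ear6 (-1.09), against 1 higher and 0 lower of 8 without inhibitor mouse 1. That count of 1 lay near the share over all genes, 9.92% lower.

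Several lists of the ear's resident tissue held many genes lower in mice 1 and 2. Cartilage genes were lower in 10 of 12 (median -2.18). Col9a1, a collagen of cartilage, had 0.481 and 0.994 CPM in inhibitor mice 1 and 2 and 0.737 and 0.686 CPM in vehicle mice 1 and 2, against 8.04 and 8.71 CPM in inhibitor mice 3 and 4 and 8.37 and 6.52 CPM in vehicle mice 3 and 4 (log2 -3.43 ± 0.25). Dermal matrix and fibroblast genes were lower in 13 of 25 (-1.03), and in 11 of 25 without inhibitor mouse 1. Col3a1, a fibrillar collagen of dermis, ran between 165 and 861 CPM in the ears of mice 1 and 2, against 1099 to 3223 CPM in those of mice 3 and 4. Eln, which codes for elastin, had 57.1 and 143 CPM in inhibitor mice 1 and 2 and 30.9 and 12.5 CPM in vehicle mice 1 and 2, against 657 and 955 CPM in inhibitor mice 3 and 4 and 408 and 782 CPM in vehicle mice 3 and 4 (log2 -3.88 ± 0.57). No member of either list was higher.

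Adipocyte genes were lower in 12 of 18 (-1.53). Pck1, which makes glycerol for fat storage in adipocytes, had 0.137 and 0.683 CPM in inhibitor mice 1 and 2 and 0 and 0.617 CPM in vehicle mice 1 and 2, against 11.8 and 14.6 CPM in inhibitor mice 3 and 4 and 8.73 and 12.7 CPM in vehicle mice 3 and 4 (log2 -5.02 ± 0.61). Thrsp, a regulator of lipid synthesis, ran between 0.0670 and 0.412 CPM in the ears of mice 1 and 2, against 6.93 to 9.22 CPM in those of mice 3 and 4. Skeletal muscle genes were lower in 7 of 26 (-1.52) and in 22 without inhibitor mouse 1. Myh4, a fast muscle myosin, had 1.24 and 0.621 CPM in inhibitor mice 1 and 2 and 2.08 and 0.823 CPM in vehicle mice 1 and 2, against 36.4 and 174 CPM in inhibitor mice 3 and 4 and 24.6 and 50.9 CPM in vehicle mice 3 and 4 (log2 -5.73 ± 0.76). All ears of mice 1 and 2 were at 2.08 CPM or less, and the ears of mice 3 and 4 differed severalfold among themselves. Nerve and Schwann cell genes were lower in 6 of 13, lymphatic genes in 4 of 9 and blood vessel genes in 2 of 15. Over all genes 9.92% were lower, and the blood vessel count lay near that share. Lymphatic genes gave 1 higher and 3 lower of 9 without inhibitor mouse 1, and blood vessel genes 2 higher and 1 lower of 15 without inhibitor mouse 1. Scn7a, a sodium channel gene of Schwann cells, ran between 1.37 and 3.29 CPM in the ears of mice 1 and 2, against 10.0 to 20.5 CPM in those of mice 3 and 4. Mmrn1, a lymphatic endothelial gene, ran 1.10 to 6.79 CPM in mice 1 and 2 against 14.3 to 25.6 CPM in mice 3 and 4. Vcam1, an endothelial receptor for lymphocytes, ran between 2.27 and 9.13 CPM in the ears of mice 1 and 2, against 13.6 to 44.4 CPM in those of mice 3 and 4, while Icam1, the partner of neutrophil integrins, was higher at 119.9 to 262 CPM in mice 1 and 2 against 74.0 to 102 CPM in mice 3 and 4.

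Red blood cell genes had the second highest list median, 3.35, with 0 of 8 separated. Hbb-bs, an adult beta globin gene, had 22.6 and 879 CPM in inhibitor mice 1 and 2 and 3482 and 4179 CPM in vehicle mice 1 and 2, against 113 and 113 CPM in inhibitor mice 3 and 4 and 25.6 and 91.3 CPM in vehicle mice 3 and 4. Inhibitor mouse 1 was the lowest of all 8 ears and the other 3 ears of its side were above all of mice 3 and 4. Without inhibitor mouse 1, 8 of 9 were higher. Globin genes have near-identical copies, so the split between copies is uncertain. The globin level was not used to correct any other gene, and its part in the other differences was not tested.

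No gene of the stress lists was counted as lower. Oxidative stress genes were higher in 12 of 18 (median 1.45), immediate early and heat shock genes in 5 of 28 (1.09), and hypoxia and glycolysis genes in 7 of 24 (0.93). Immediate early and heat shock genes gave 16 higher and 0 lower of 28 without inhibitor mouse 1, and hypoxia and glycolysis genes 14 higher and 0 lower of 24 without inhibitor mouse 1. Oxidative stress genes gave 13 higher and 0 lower of 18 without inhibitor mouse 1. Srxn1, a sulfiredoxin under control of the NRF2 factor, had 98.1 and 117 CPM in inhibitor mice 1 and 2 and 273 and 272 CPM in vehicle mice 1 and 2, against 46.4 and 46.3 CPM in inhibitor mice 3 and 4 and 38.2 and 37.5 CPM in vehicle mice 3 and 4 (log2 2.03 ± 0.33). Adm, a vasodilator peptide induced by low oxygen, ran between 4.61 and 82.9 CPM in the ears of mice 1 and 2, against 2.36 to 3.69 CPM in those of mice 3 and 4. Fosb, an AP-1 subunit induced within minutes of a stimulus or of handling of tissue, had 20.7 and 52.2 CPM in inhibitor mice 1 and 2 and 131 and 182 CPM in vehicle mice 1 and 2, against 9.88 and 12.3 CPM in inhibitor mice 3 and 4 and 4.78 and 2.70 CPM in vehicle mice 3 and 4 (log2 3.50 ± 0.84). Heat shock genes Hspa1a and Hspa1b overlapped (1.40 and 1.18), and they are near-identical copies. The part of handling time in these levels was not tested.

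The 10 genes highest by log2 difference among those reaching a mean of 5 CPM were Cyp24a1, Pdyn, Ngp, Mmp10, Csf3, Retnlg, Fosl1, Ptgs2, Mmp3 and Cxcl1. Cyp24a1, which breaks down vitamin D, rested on 1 ear. It had 0.344 and 0.373 CPM in inhibitor mice 1 and 2 and 536 and 3.08 CPM in vehicle mice 1 and 2, against 0.154 and 0 CPM in inhibitor mice 3 and 4 and 0.0514 and 0.0509 CPM in vehicle mice 3 and 4. Pdyn, the precursor of dynorphin peptides, had 0 reads in all ears of mice 3 and 4, and 1 and 44 reads in inhibitor mice 1 and 2 and 60 and 279 reads in vehicle mice 1 and 2.

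At the lower end stood Gm13309, Mybpc2, Myh4, Mup19, Pck1, Thrsp, Gzma, Mup2, Mup10 and Gbp2b. Gm13309, which RefSeq lists as a transcribed pseudogene, had 0 reads in all 4 ears of mice 1 and 2. It had 444 and 268 reads in inhibitor mice 3 and 4 and 329 and 441 reads in vehicle mice 3 and 4. Its reads may be shared with near-identical copies, so its level is uncertain. Mup2 had 0 and 24 reads in inhibitor mice 1 and 2 and 0 and 1 reads in vehicle mice 1 and 2, against 105 and 292 reads in inhibitor mice 3 and 4 and 99 and 246 reads in vehicle mice 3 and 4. The Mup genes, for major urinary proteins, are near-identical, so the 3 named are not independent. Gbp2b, an interferon-induced guanylate-binding protein, had 0.825 and 0.186 CPM in inhibitor mice 1 and 2 and 0 and 0.206 CPM in vehicle mice 1 and 2, against 7.53 and 13.4 CPM in inhibitor mice 3 and 4 and 3.75 and 3.82 CPM in vehicle mice 3 and 4 (log2 -4.61 ± 0.56).

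Sex-linked genes and transcript length were looked at as well. The Y-linked genes Ddx3y, Kdm5d and Eif2s3y had at most 5, 1 and 10 reads in any ear. Uty had 406 and 373 reads in inhibitor mice 1 and 2 and 404 and 410 reads in vehicle mice 1 and 2, against 235 and 191 reads in inhibitor mice 3 and 4 and 247 and 197 reads in vehicle mice 3 and 4. Uty thus separated the sides (log2 1.25 ± 0.14) while the other 3 Y-linked genes were near 0 in every ear, and the source of its reads was not tested. By transcript length, the median log2 differences in the quartiles of genes from shortest to longest were 0.02, -0.03, -0.03 and -0.03.

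Within each treatment the sides were also compared, and most counted genes differed less in inhibitor ears than in vehicle ears. Of the 2296 genes set apart in either direction (14.7% of genes), 1696 (73.9%) did so. The same share was not taken over all genes, so nothing particular to the counted genes is read from it. Among higher genes the median log2 difference was 1.22 in inhibitor ears and 1.94 in vehicle ears. Among lower genes it was -1.54 in inhibitor ears and -1.90 in vehicle ears. The lists differed in this. The median of cytokine genes was 1.29 in inhibitor ears and 2.91 in vehicle ears. That of red blood cell genes was 1.60 in inhibitor ears and 5.05 in vehicle ears. That of T and NK cell genes was -2.33 in inhibitor ears and -2.92 in vehicle ears. Sebaceous gland genes were at 0.15 in inhibitor ears and -1.73 in vehicle ears. Other lists differed more in inhibitor ears, such as lymphocyte- and dendritic cell-attracting chemokines (-1.46 in inhibitor ears and -0.80 in vehicle ears), skeletal muscle genes (-1.75 in inhibitor ears and -1.34 in vehicle ears) and dermal matrix genes (-1.23 in inhibitor ears and -0.99 in vehicle ears). Each of these medians rests on 2 ears per side and arm, and inhibitor mouse 1 is 1 of the 2 on its side.

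**Figure D4:**
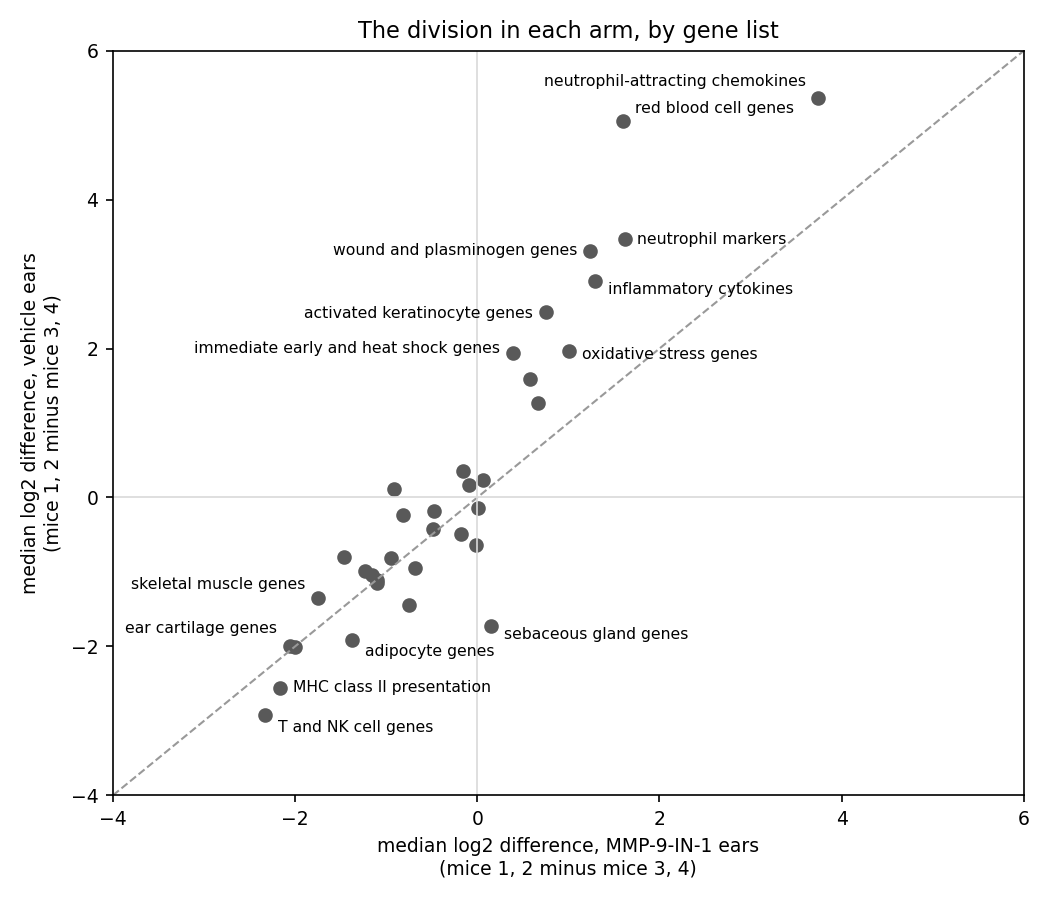
Median log2 difference between the ears of mice 1 and 2 and those of mice 3 and 4 for each gene list, in inhibitor ears and in vehicle ears, with a dashed line of equal values; each point is 1 list. Cytokine and red blood cell lists lie nearer to 0 in inhibitor ears than in vehicle ears, while T and NK cell genes lie nearer to the line.

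Whether the inhibitor's effect differed between the sides was tested as an interaction over all genes. This is another contrast than the one between the sides, but its p-values are not independent of the choice of sides, which used the same libraries and can make the ears within a side alike. It was the inhibitor minus vehicle difference in mice 1 and 2, less that difference in mice 3 and 4. By edgeR's quasi-likelihood test with Benjamini-Hochberg adjustment no gene passed (0 of 15660, 0%). Its lowest adjusted p came to 0.104. Before adjustment, 2701 genes (17.2%) had a p under 0.05, with 1255 negative (8.01%) and 1446 positive (9.23%). limma-voom also called 0 genes and DESeq2 called 752, of which 356 were positive. Leaving out inhibitor mouse 2, so that inhibitor mouse 1 alone stood for its cell, gave 976 calls in edgeR, and leaving out inhibitor mouse 1 gave 0.

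Among the genes with the smallest interaction p were Plk2, Tmem45b, Clstn3 and Tnfrsf12a, with adjusted p of 0.104 to 0.105 in edgeR. Plk2, a stress-responsive kinase, had 57.7 and 65.1 CPM in inhibitor mice 1 and 2 and 164 and 178 CPM in vehicle mice 1 and 2, against 32.0 and 28.3 CPM in inhibitor mice 3 and 4 and 18.2 and 19.9 CPM in vehicle mice 3 and 4. The inhibitor ears of mice 1 and 2 were both below the vehicle ears of that side, and the interaction was -2.14 ± 0.18 (SE, log2). Tnfrsf12a, the receptor of the cytokine TWEAK, had 108 and 125 CPM in inhibitor mice 1 and 2 and 292 and 252 CPM in vehicle mice 1 and 2, against 48.7 and 45.2 CPM in inhibitor mice 3 and 4 and 30.4 and 28.2 CPM in vehicle mice 3 and 4, an interaction of -1.91 ± 0.20. In these 2 genes the order was the opposite in mice 3 and 4, where both inhibitor ears were above both vehicle ears. Tmem45b and Clstn3 went the other way (1.89 and 2.91). Clstn3, a calsyntenin that is also expressed in fat, had 39.3 and 30.2 CPM in inhibitor mice 1 and 2 and 6.57 and 5.69 CPM in vehicle mice 1 and 2, against 33.8 and 26.5 CPM in inhibitor mice 3 and 4 and 43.3 and 36.9 CPM in vehicle mice 3 and 4.

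By list, unadjusted interaction p-values under 0.05 in edgeR were counted. Over all genes, 8.01% had such a p with a negative estimate and 9.23% with a positive one. Of all 15660 estimates, 7671 were negative. Immediate early and heat shock genes had 17 of 28 such genes negative and 0 positive. Wound and plasminogen genes had 11 of 19 negative, oxidative stress genes 10 of 18 and cytokines 6 of 25. Oxidative stress genes also had 1 positive. Activated keratinocyte genes had 10 negative and 1 positive of 30, and epidermal barrier genes 6 negative and 7 positive of 40. Cell cycle genes had 1 negative and 8 positive of 25, and adipocyte genes 1 negative and 6 positive of 18. Inhibitor mouse 1 is 1 of the 2 inhibitor ears of its side in all these estimates. In sebaceous gland genes 14 of 17 were positive and none was negative. The neutrophil list had all 29 estimates negative, of which 3 had such a p. T and NK cell genes had 1 of 36 and MHC class II genes 0 of 12. No gene of any list passed after adjustment in edgeR, where the smallest adjusted p over all genes was 0.104.

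**Figure D5:**
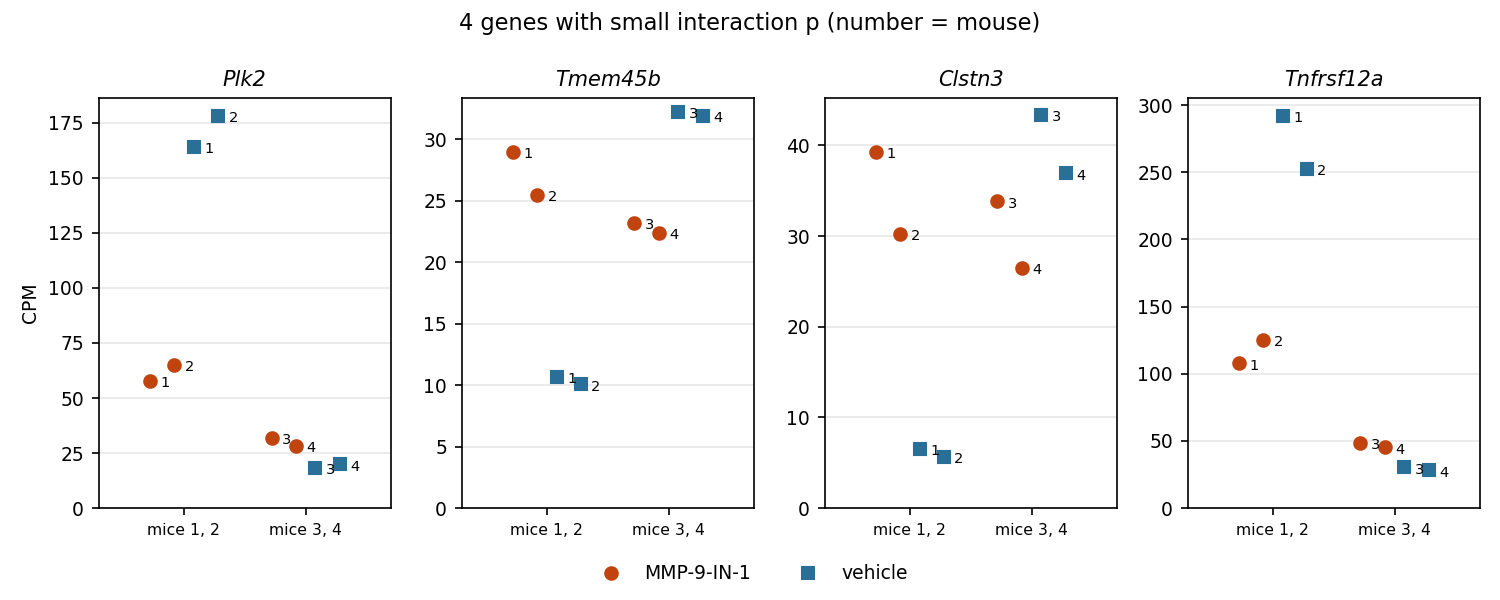
Level in CPM (linear axes from 0) of 4 genes among those with the smallest interaction p, 1 point per ear, by side and treatment (circles inhibitor, squares vehicle; the digit is the mouse number). In Plk2 and Tnfrsf12a the inhibitor ears lie below the vehicle ears in mice 1 and 2 and above them in mice 3 and 4; none of the 4 passed the adjusted threshold (smallest adjusted p 0.104 in edgeR).

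With the division in the fit, the inhibitor effect over all 8 ears gave 0 genes past an adjusted p of 0.05 (0%) in edgeR's quasi-likelihood test with Benjamini-Hochberg adjustment, the lowest being 0.707. The division was chosen from these same values and takes spread out of the fit. All p-values from fits that hold it, in edgeR or DESeq2, therefore depend on that choice. Before adjustment, 828 genes (5.29%) had a p under 0.05, of which 488 were higher and 340 lower in inhibitor ears. The fit with no division term also gave 0 calls, with 176 genes at an unadjusted p under 0.05, and DESeq2 with the division gave 1. That gene was Pmel, a melanosome matrix protein, which had 3.09 and 3.79 CPM in inhibitor mice 1 and 2 and 10.9 and 14.8 CPM in vehicle mice 1 and 2, against 5.84 and 6.30 CPM in inhibitor mice 3 and 4 and 9.19 and 12.9 CPM in vehicle mice 3 and 4. Inhibitor ears were lower than the vehicle ears on both sides, with a log2 difference of -1.37 ± 0.27 (SE) in edgeR, where its adjusted p was 0.707, and an adjusted p of 0.0331 in DESeq2. The next smallest p-values in edgeR belonged to Lancl3 (-1.85), Pknox2 (0.97), Sprr2b (-1.43) and Mmp1a (-1.50). Mmp9 itself had an inhibitor difference of -0.84 ± 0.82 (SE), with an adjusted p of 0.761 in edgeR.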

How the data were processed

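Left-ear RNA of 8 mice was sequenced on a DNBSEQ platform, with single reads of 50 bases per the labels' protocols. The authors' deposited table gives, for each gene and ear, an estimated count of reads, an FPKM and a TPM value. The submitters' processing notes name HISAT and GRCm39. No source used here names the counter or the annotation. Between 33.7% and 35.3% of the deposited counts were not whole (tolerance 1e-09), and they were rounded. The deposited FPKM values served an alternative on log2(FPKM + pseudocount), and the deposited TPM values the levels per length. A further 6 deposited columns of arm means were not used.

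Counts were analysed in edgeR 4.0.16 (R 4.3.3) with filterByExpr, TMM scaling and glmQLFit. Tests compare animals. Both tests hold the division in the fit, so their p-values measure only the spread between ears that the division leaves. The division was fitted with treatment as covariate and given no p. The interaction and the inhibitor effect were tested by the quasi-likelihood test with Benjamini-Hochberg adjustment over 15660 genes, at 0.05, with 4 and 5 residual degrees of freedom. The median SE of a log2 value was 0.32 for the interaction and 0.19 for the inhibitor effect, which sets the precision. Levels are TMM-scaled CPM; list means use log2 CPM with a prior count of 2. limma-voom (limma 3.58.1) and DESeq2 1.42.0 were alternatives. The code was tested on simulated data.

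The members, the 36 gene lists (716 names, 707 matched) and the tests were chosen with earlier results of these data known. Named genes were the markers and Mmp9, the top 2 members of each list, the 10 highest and 10 lowest by log2 difference, and the 5 smallest p-values of each test, of which 1 gene is not reported here. Other list members are named as examples chosen after their values were seen. Within arms, libraries of different mice differed far beyond counting noise (chi-square per degree of freedom 22.8 to 91.1). Promoters came from RefSeq for 12398 of the tested genes.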

Additional observations from a re-analysis of the deposited data

Results flagged for a closer look

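The list means over the 4 ears of each side were checked for an ear far from the other 3. Of 70 groups, 5 held one, and chance gives about 1 in 20. The groups share ears and some genes, so they are not independent, and the number of flags is not read further.

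In mice 1 and 2, the mean log2 CPM of neutrophil-attracting chemokines was 5.08 in inhibitor mouse 1, with the other 3 ears between 8.42 and 8.95. The mean of monocyte-attracting chemokines was 4.60 in the same ear, with the others between 7.13 and 7.57. The mean of interferon response genes was 6.08 in vehicle mouse 2, above the 5.80 to 5.84 of the others.

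In mice 3 and 4, epidermal barrier genes had a mean log2 CPM of 5.40 in inhibitor mouse 4, below the 5.78 to 5.85 of the others. Red blood cell genes had a mean of 2.15 in vehicle mouse 3, below the 3.62 to 3.67 of the others.

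Of the genes with the smallest interaction p, 4 had opposite inhibitor differences on the 2 sides, with no overlap of the arms on either side. In mice 1 and 2 both inhibitor ears were below both vehicle ears for Plk2 and Tnfrsf12a, and in mice 3 and 4 they were above. Their interactions were -2.14 and -1.91 on the log2 scale. Tmem45b and Clstn3 went the other way, with 1.89 and 2.91. None passed in edgeR's quasi-likelihood test (adjusted p of 0.104 to 0.105). These genes were named for that test, so their opposite order is no separate evidence.

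Tmem45b also differed between the sides in opposite directions in the 2 arms. It had 29.0 and 25.5 CPM in inhibitor mice 1 and 2 and 10.7 and 10.1 CPM in vehicle mice 1 and 2, against 23.2 and 22.4 CPM in inhibitor mice 3 and 4 and 32.3 and 31.9 CPM in vehicle mice 3 and 4.

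The list means of wound and plasminogen genes and of immediate early and heat shock genes showed the same order as Plk2. Wound and plasminogen genes had a mean log2 CPM of 5.52 and 7.05 in inhibitor mice 1 and 2 and 7.70 and 8.04 in vehicle mice 1 and 2, against 4.87 and 5.27 in inhibitor mice 3 and 4 and 4.46 and 4.78 in vehicle mice 3 and 4. Immediate early and heat shock genes had a mean of 6.43 and 7.20 in inhibitor mice 1 and 2 and 7.82 and 8.23 in vehicle mice 1 and 2, against 6.31 and 6.40 in inhibitor mice 3 and 4 and 6.04 and 6.16 in vehicle mice 3 and 4. In both lists the arms were further apart in mice 1 and 2 than in mice 3 and 4. The median interactions of their genes were -1.86 and -1.59, and the difference between the list means was not tested.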

How the results depend on the processing

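Among the named genes whose difference between the sides was recomputed, none that separated the sides changed sign. The median of the metalloproteinase list, 0.02, lay between -0.18 and 0.23 when 1 ear was left out. The 742 higher and 1554 lower genes became 459 and 938 with at least 1 CPM in every library, 246 and 563 with a log2 difference of at least 2, and 2850 and 3048 with separation alone. Vehicle ears alone gave 1957 and 2480. Higher genes numbered 287 with log2(FPKM + 1) and 363 with log2(FPKM + 0.1). Leaving out 1 ear at a time gave 750 to 1425 higher and 1502 to 1929 lower genes, the 1425 without inhibitor replicate 1. The share of higher among counted genes was 32.3%. It was 20.9% with scaling by total counts (542 higher, 2046 lower), which moved the median of all genes by -0.20, 21.5% and 19.6% on the FPKM scales, 45.2% without inhibitor replicate 1 and 44.1% in vehicle ears alone. The interaction's 0 calls in edgeR became 752 in DESeq2 and 0 to 976 leaving out 1 ear at a time, the 976 without inhibitor replicate 2. The inhibitor effect's 0 calls became 1 in DESeq2. The cause of these changes was not tested. With mouse number as a replicate block, edgeR called 0 genes for the interaction and 0 for the inhibitor effect. The pairing changed no call, but the blocked interaction fit has only 2 residual degrees of freedom. In edgeR's quasi-likelihood test of the interaction, the block moved genes with an unadjusted p under 0.05 from 2701 to 3767. The smallest adjusted p of that test moved from 0.104 to 0.0665. Within each side, the difference between the 2 mice correlated across genes between the arms (r = 0.237 for mice 1 and 2 and 0.438 for mice 3 and 4), which is a hint from the data and not part of the labelled design; over all 4 numbers the choice of sides itself fixes such a correlation. Of the list medians, 36 values moved by more than the spread and 558 did not. With 2 ears per treatment and side, an interaction had a median SE of 0.32 on the log2 scale.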

Other observations

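Clock and glucocorticoid-induced genes were divided: of 20 tested, 5 were lower and 2 higher in mice 1 and 2. The counts were 3 higher and 6 lower of 20 without inhibitor mouse 1. Tsc22d3, a glucocorticoid-induced leucine zipper gene, had 18.1 and 43.9 CPM in inhibitor mice 1 and 2 and 25.2 and 22.8 CPM in vehicle mice 1 and 2, against 115 and 206 CPM in inhibitor mice 3 and 4 and 187 and 230.2 CPM in vehicle mice 3 and 4 (log2 -2.74 ± 0.34). No ear of mice 1 and 2 reached the lowest ear of mice 3 and 4. Zbtb16, another glucocorticoid-induced gene, ran between 3.79 and 7.70 CPM in the ears of mice 1 and 2, against 14.1 to 27.8 CPM in those of mice 3 and 4. Dbp (-1.72), Hlf (-1.61) and Per3 (-1.03), output genes and a part of the circadian clock, were lower too. Fkbp5, a further glucocorticoid target, was not separated (-1.11), and neither were Per1 (0.52), Per2 (0.11) and Nr1d1 (0.87). Sgk1 was higher at 131 to 696 CPM in mice 1 and 2 against 100.4 to 122 CPM in mice 3 and 4. The hour of collection was not analysed here, and its part was not tested.

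Interferon response genes were counted as set apart in both directions, with 5 lower and 1 higher of 28, beside 9.92% lower and 4.74% higher over all genes, and 2 higher and 4 lower of 28 without inhibitor mouse 1. Cd274, which codes for PD-L1, was the higher one at 103 to 407 CPM in mice 1 and 2 against 55.8 to 92.4 CPM in mice 3 and 4, and Ifi44 was the lowest at 4.02 to 7.64 CPM in mice 1 and 2 against 16.8 to 29.1 CPM in mice 3 and 4. Of 25 cell cycle genes, 26 respiratory chain genes and 30 cytosolic ribosomal protein genes none was set apart. Their median log2 differences were -0.35, -0.10 and 0.16, beside -0.02 over all genes. Sebaceous gland genes had 1 lower of 17 and melanocyte genes 1 of 9. The sebaceous counts were 0 higher and 4 lower of 17 without inhibitor mouse 1. In hair follicle genes 2 of 12 were lower and 1 higher, against 2 higher and 3 lower of 18 without inhibitor mouse 1.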
